A study of Mus musculus with 9 samples.

Results

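The Src-family kinases Blk, Fgr, Lyn, Fyn, Src and Yes1 were examined together with Csk, Syk and Btk, the kinases that act directly on or after them. The 9 genes were taken by symbol from the expression tables, which list 24054 genes, and all 9 were present. They were read in 9 mRNA sequencing libraries of spleen cells sorted as live, single, autofluorescence-negative cells with MHCII, CD11c and CD11b on their surface. Every mouse was C57BL/6 and carried Clec9a-Cre/Cre together with Rosa-tdTomato/tdTomato, so that a cell with a history of Clec9a-driven Cre is marked by the fluorescent protein TOMATO (TOM). There were 3 libraries of TOM+ cDC2 (type 2 conventional dendritic cells) and 3 of TOM- DC2 from mice at postnatal day 8, whose spleens were pooled before sorting. The other 3 were TOM+ cDC2 from adult mice, 9 weeks old for replicate 1 and 8 weeks old for replicates 2 and 3. The reporter records past Cre activity and not current Clec9a expression, and no TOM- cells from adults are among the libraries.

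Src-family kinases sit under the plasma membrane and add the first phosphates to the ITAM motifs of activating receptors. The phosphorylated ITAM recruits Syk, which together with Btk passes the signal on to phospholipase C gamma and to the CARD9-BCL10-MALT1 complex. Csk phosphorylates the inhibitory tail of Src-family kinases and holds them in check, whereas the phosphatase CD45 removes that phosphate. In dendritic cells the pathway is known for signalling from Fc receptors, integrins and C-type lectins such as Dectin-1.

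Reads counted on genes numbered 12783252 to 22809401 per library, and 14452 genes had an average count of at least 1 and were tested. Adult libraries had 15.2% to 17.1% of their reads outside annotated features, against 8.84% to 12.8% in the libraries from young mice. All 12 cDC2 marker genes had a group mean over 10 TPM (the level of a transcript per length, relative to its library) in all 3 groups, led by Cd74, H2-Ab1 and Sirpa. Transcripts of other cells were low but not absent. Summed TPM of 8 neutrophil markers were 38.1 in young TOM- DC2 replicate 1 and at most 1.78 in the libraries from young TOM+ cDC2. Summed TPM of 9 macrophage markers, among them C1qb, Spic and Hmox1, were 285 to 347 in young TOM- DC2, 174 to 223 in young TOM+ cDC2 and 101 to 153 in adults. Nothing in the labels says whether replicates came from separate litters or sorts, so p-values measure the spread between these libraries.

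Lyn carried the highest TPM of the 9 genes in every library, and Fgr came next in every library. Csk and Syk stood at 117 to 198 TPM, Btk and Fyn at 42.7 to 77.5 TPM, and Blk, Src and Yes1 below them. Syk was above Csk in all 6 libraries from young mice and below it in all 3 adult libraries. Btk was likewise above Fyn in every library from young mice and below it in every adult library. Src and Yes1 never reached 1 TPM and rested on 14 to 37 and 4 to 33 reads per library, so that changes of either were measured with wide intervals. Lyn rested on 8520 to 17376 reads.

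**Figure D1:**
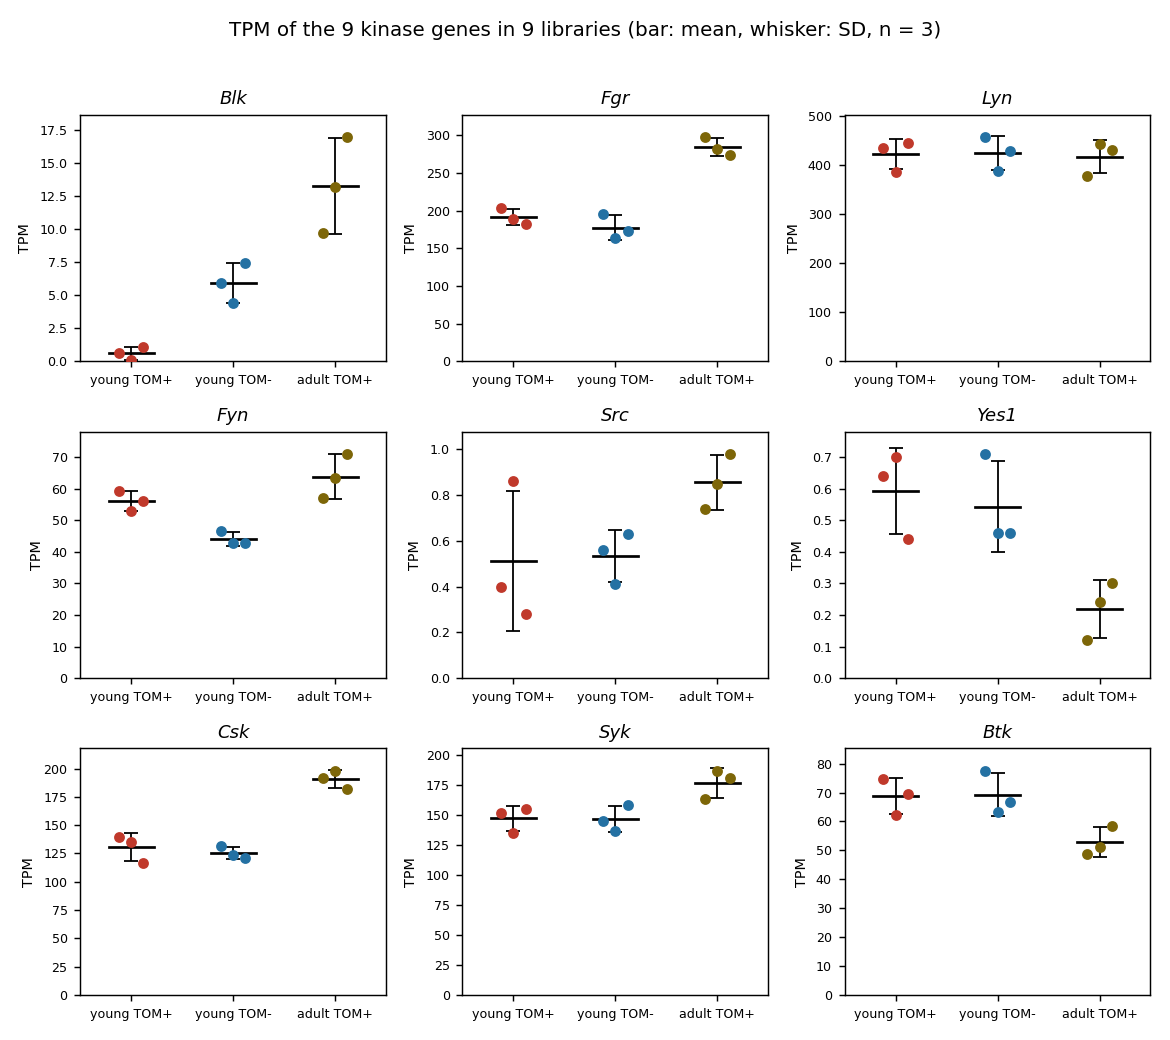
TPM of the 9 kinase genes in each of the 9 libraries, 1 panel per gene and 1 point per library, with the y axis starting at 0, the mean as a bar and the SD (n = 3) as a whisker. Blk is below 1.1 TPM in the 3 young TOM+ libraries and between 9.68 and 17.0 TPM in the adults, whereas the Lyn points of the 3 groups lie over each other between 378 and 457 TPM.

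Between TOM+ cDC2 and TOM- DC2 of young mice, which asks whether cells with and without a Cre history differ at the same age, Blk was lower and Fyn was higher in TOM+ cells, and the other 7 kinase genes did not pass the test. All log2 fold changes below come from edgeR's quasi-likelihood test on gene counts, with Benjamini-Hochberg adjustment over the 14452 genes, and each is young over adult or TOM+ over TOM-. At an adjusted p under 0.05, 1 member was higher and 1 lower, where 0.125% of all genes tested were higher and 1.47% were lower. With a log2 fold change beyond 1 in addition, 1 member was called against 1.18% of all genes. Of all genes 170 were called in this way, and 274 when the number carried by the deposited library names was added as a replicate block. By adjusted p alone the block called the same number of members, 2, whereas 2.23% of all genes tested were then higher and 4.34% lower (949 genes in place of 231).

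More of the kinase genes passed in the comparisons with adults. In young TOM+ cDC2 against adult TOM+ cDC2, 5 members (Blk, Fgr, Fyn, Csk and Syk) were lower and 2 (Yes1 and Btk) higher, where 19.5% of all genes tested were lower and 21.0% were higher. With the fold threshold, 2 members were called against 12.8% of all genes. In young TOM- DC2 against the same adult libraries, 5 members (again Blk, Fgr, Fyn, Csk and Syk) were lower and 0 higher, where 16.9% of all genes were lower and 19.4% higher, and 1 member was called with the fold threshold against 11.3% of all genes. At an unadjusted p under 0.05, 2 members were higher, and by adjusted p 0 were higher with DESeq2 and 2 with limma on log2(TPM + 1). Of all genes that passed, 49.7% were higher with DESeq2 and 72.7% with that limma fit, against 53.5% in edgeR. With the replicate block 8 members passed in this comparison, as Lyn, Yes1 and Btk were added. Under the block 23.6% of all genes tested were higher and 21.7% lower. The median log2 fold change of the 9 members was -0.41 and -0.71 in these comparisons, against 0.05 and 0.07 over all genes. The comparisons with adults share the adult libraries and are not independent of each other.

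The scale matters for small changes with age. Adult libraries had TMM normalization factors of 0.894 to 0.928, against 1.02 to 1.08 in the libraries from young mice. Scaling by library size alone raised the median log2 fold change of all genes by 0.20 in young TOM+ cDC2 against adults and by 0.22 in young TOM- DC2 against adults. Under that scaling the share of called genes that were higher in young cells went from 46.5% to 62.6% in the former comparison and from 57.6% to 74.2% in the latter. All the members kept their direction on that scale in these comparisons except Lyn.

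**Figure D2:**
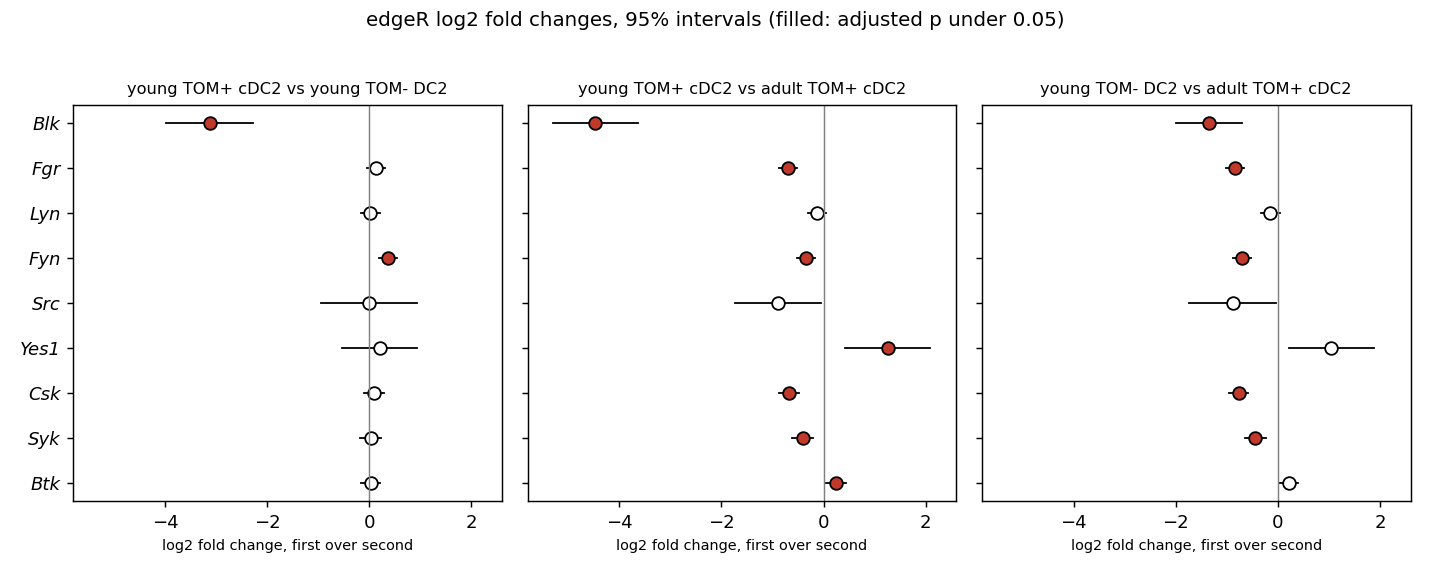
Log2 fold changes of the 9 kinase genes in the 3 comparisons, as edgeR estimates with 95% intervals, filled where the adjusted p was under 0.05. Blk lies farthest from 0 in all 3 panels, at -3.13, -4.47 and -1.34, and the intervals of Blk, Src and Yes1 are the widest.

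Among the Src-family kinases, Blk, a member best known from B cells, varied most. Its level in young TOM+ cDC2 was 0.63, 0.12 and 1.06 TPM in replicates 1, 2 and 3, resting on 20, 4 and 32 reads. Young TOM- DC2 held 5.93, 4.38 and 7.42 TPM, and adult cDC2 held 9.68, 13.2 and 17.0 TPM. The 3 groups did not overlap, with young TOM+ cells lowest and adult cells highest. Blk was 8.74-fold higher in young TOM- DC2 than in young TOM+ cDC2 (log2 fold change -3.13 ± 0.39 SE, edgeR adjusted p = 0.000815). The difference was 22.2-fold between adult and young TOM+ cells (log2 fold change -4.47 ± 0.38, edgeR adjusted p = 3.43e-06). Adult cells were 2.54-fold above young TOM- DC2 (log2 fold change -1.34 ± 0.30, edgeR adjusted p = 0.00388). Without each library in turn Blk passed in all 3 comparisons, with log2 fold changes of -4.06 to -5.08 for young TOM+ cDC2 against adults (-5.08 without young TOM+ replicate 3), whereas limma on log2(TPM + 0.1) gave an adjusted p of 0.0994 for the last of them.

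Markers of B cells were read beside Blk, since B cells express it. In a bulk sample fewer cells of a type and less RNA per cell cannot be told apart. Ms4a1, which encodes CD20, was 2.04 to 2.77 TPM in young TOM+ cDC2, 6.02 to 10.4 in young TOM- DC2 and 13.8 to 22.1 in adults, which is the same order of groups as Blk. Cr2 was at most 0.42, 0.47 and 1.48 TPM in the same groups. The defining genes Pax5, Ebf1 and Vpreb3 did not exceed 0.54 TPM in any library, and Pax5 was at 0 in 7 of 9. Cd79a was at most 1.59 TPM, and Cd79b ran the other way, at 58.5 to 68.2 TPM in the young libraries and 25.3 to 35.6 TPM in adults. Of 10 B cell markers tested, 2 (Ms4a1 and Fcer2a) were lower and none higher in young TOM+ cDC2 than in young TOM- DC2 in edgeR, and none was higher at an unadjusted p under 0.05 or with DESeq2 or limma. Of all genes tested in that comparison, 1.47% were lower and 0.125% higher in edgeR. Against adults, 1 B cell marker was higher and 5 lower in young TOM+ cDC2, and 2 were higher and 3 lower in young TOM- DC2. For all genes tested, the shares higher and lower were 21.0% and 19.5% in the former, and 19.4% and 16.9% in the latter. Summed TPM of the B cell markers, led by Cd22, Cd79b and Bank1, were 127 to 186 in young TOM+ cDC2, 150 to 221 in young TOM- DC2 and 200 to 209 in adults. The part of B cells in the level of Blk was not tested.

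**Figure D3:**
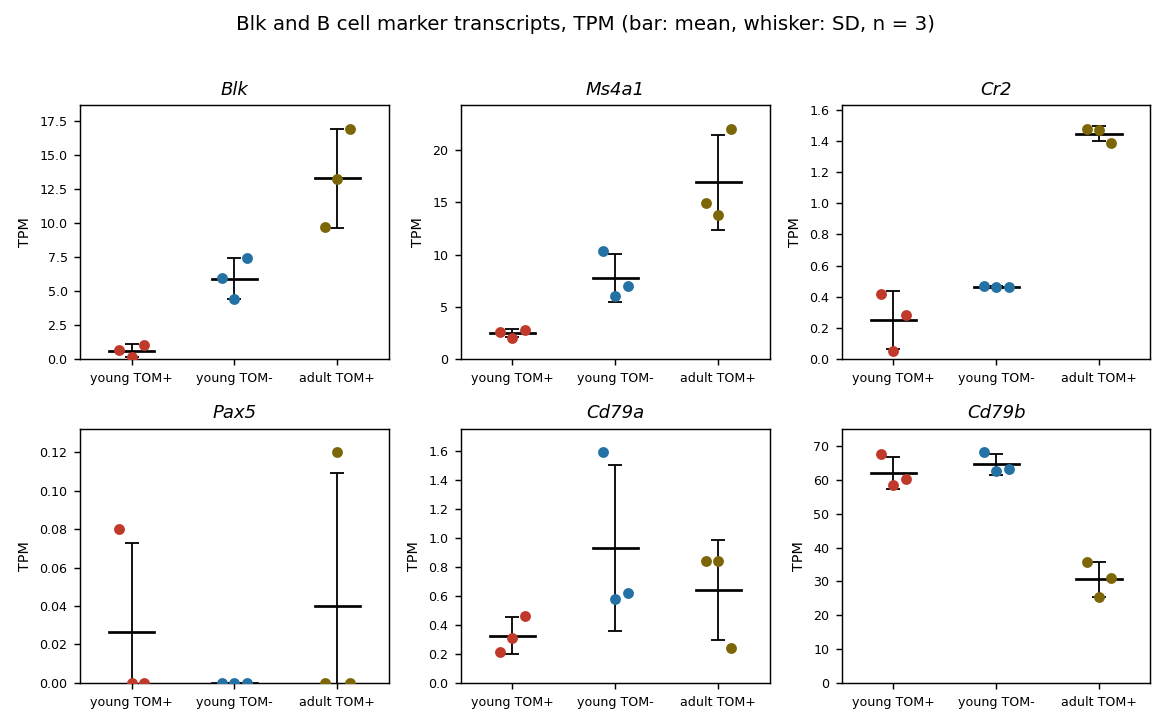
TPM of Blk and of the B cell marker transcripts Ms4a1, Cr2, Pax5, Cd79a and Cd79b, 1 point per library, mean as a bar and SD (n = 3) as a whisker, each panel with its own y axis from 0. Ms4a1 has the same order of groups as Blk, Cd79a stays at or below 1.59 TPM, and Cd79b is lowest in adults.

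Lyn, which in myeloid cells both starts receptor signals and feeds inhibitory receptors, was the most abundant member. Its level was 436, 387 and 445 TPM in young TOM+ cDC2, 457, 388 and 428 TPM in young TOM- DC2 and 378, 443 and 431 TPM in adults. In TPM the groups overlapped and no group stood apart, whereas in CPM young TOM- DC2 and adults did not overlap. The log2 fold change was 0.02 between the young groups (95% interval -0.16 to 0.20), -0.13 between young TOM+ cDC2 and adults (-0.31 to 0.06) and -0.15 between young TOM- DC2 and adults (-0.33 to 0.04). None passed, with edgeR adjusted p-values of 0.983, 0.257 and 0.194. With the replicate block the last of these passed at an adjusted p of 0.0455, with a log2 fold change of -0.15. The direction of both age differences turned under library size alone, to 0.07 and 0.08, and in the limma fits on TPM. An antisense RNA gene, Gm26857, shares 248 exonic bases with Lyn, and the counting did not separate strands.

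Fgr, a kinase of neutrophils, monocytes and dendritic cells that acts after integrins and Fc receptors, changed with age. Young TOM+ cDC2 held 203, 189 and 182 TPM, young TOM- DC2 196, 164 and 172 TPM, and adults 297, 282 and 273 TPM. All 3 adult libraries were above all 6 from young mice, and the young groups overlapped in TPM. Adult levels were 1.62-fold those of young TOM+ cDC2 (log2 fold change -0.70 ± 0.08 SE, edgeR adjusted p = 2.97e-05) and 1.79-fold those of young TOM- DC2 (-0.84 ± 0.08, edgeR adjusted p = 1.08e-05). Between the young groups the log2 fold change was 0.14 (95% interval -0.03 to 0.31, edgeR adjusted p = 0.68). Fgr passed in both age comparisons under all 20 alternative fits of each.

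Promoter sequences, 250 bases before to 50 after an annotated start, were found in RefSeq (GRCm38.p6) for 7 of the 9 genes, in 9 entries. Blk and Lyn had no entry. The entries were searched on both strands for GGAAGT, a core sequence of sites for ETS-family factors such as PU.1. GGAAGT was held by 2 of the 9 entries, the entry of Fgr and 1 of the 2 of Syk, and by 23.8% of all 32851 promoters of that length. The entries of Fgr, at chr4:132973845-132974144 on the plus strand, and of Syk, at chr13:52596632-52596931 on the plus strand, are shown because they are the members lower in young cells whose windows hold the motif, which is in capitals (as ACTTCC where it lies on the other strand). A match describes the letters and does not show that a factor binds there.
Fgr: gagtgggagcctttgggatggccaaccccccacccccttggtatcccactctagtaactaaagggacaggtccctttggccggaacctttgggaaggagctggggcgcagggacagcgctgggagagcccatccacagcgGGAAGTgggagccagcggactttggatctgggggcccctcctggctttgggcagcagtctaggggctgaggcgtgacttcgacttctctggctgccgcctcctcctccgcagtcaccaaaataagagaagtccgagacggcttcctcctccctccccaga
Syk: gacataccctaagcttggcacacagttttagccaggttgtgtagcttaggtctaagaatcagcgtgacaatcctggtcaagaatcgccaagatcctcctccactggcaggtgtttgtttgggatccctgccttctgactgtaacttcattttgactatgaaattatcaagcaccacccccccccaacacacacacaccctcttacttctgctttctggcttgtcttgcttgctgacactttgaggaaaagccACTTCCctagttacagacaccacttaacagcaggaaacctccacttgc

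Fyn, which serves ITAM receptors in lymphoid and myeloid cells, was the member other than Blk that differed between the young groups. Its level was 59.3, 53.0 and 56.3 TPM in young TOM+ cDC2, 46.6, 42.7 and 43.0 TPM in young TOM- DC2 and 57.0, 63.6 and 71.0 TPM in adults. Each young TOM+ library lay above each young TOM- library, whereas young TOM+ and adult libraries overlapped in TPM. Fyn was 1.29-fold higher in young TOM+ cDC2 than in young TOM- DC2 (log2 fold change 0.37 ± 0.08 SE, edgeR adjusted p = 0.0397). This call was lost under library size alone (adjusted p = 0.0728), when any 1 of the 6 young libraries was left out (adjusted p from 0.0983 to 0.18), without adult replicate 2 (0.0588) and in all limma fits (0.155 to 0.162). Adults were 1.64-fold above young TOM- DC2 (-0.71 ± 0.08, edgeR adjusted p = 3.75e-05) and 1.26-fold above young TOM+ cDC2 (-0.34 ± 0.08, edgeR adjusted p = 0.00528). The latter call was lost under library size alone, where the log2 fold change was -0.14 and the adjusted p 0.198, and in the limma fits (adjusted p 0.144 to 0.157).

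Src and Yes1, the broadly expressed members of the family, were near the limit of detection. Src was 0.40, 0.86 and 0.28 TPM in young TOM+ cDC2, 0.56, 0.41 and 0.63 TPM in young TOM- DC2 and 0.74, 0.85 and 0.98 TPM in adults. The adult libraries lay above young TOM- DC2 and overlapped with young TOM+ cDC2, where replicate 2 was high. Src did not pass in any comparison (log2 fold change -0.89 ± 0.39 SE against adults in both young groups, edgeR adjusted p = 0.0878 and 0.0932). Without young TOM+ replicate 2 its log2 fold change against adults was -1.42 and passed, at an adjusted p of 0.0137. Between the young groups its log2 fold change was 0.00 with a 95% interval of -0.94 to 0.95.

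Yes1 was 0.64, 0.70 and 0.44 TPM in young TOM+ cDC2, 0.71, 0.46 and 0.46 TPM in young TOM- DC2 and 0.12, 0.24 and 0.30 TPM in adults. The young groups overlapped and both lay above the adults, in which 4, 8 and 15 reads were counted. It was 2.39-fold higher in young TOM+ cDC2 than in adults (log2 fold change 1.26 ± 0.38 SE, edgeR adjusted p = 0.0191) and 2.07-fold higher in young TOM- DC2 (1.05 ± 0.38, edgeR adjusted p = 0.0504). The former call was lost without young TOM+ replicate 2 (adjusted p = 0.069) or adult replicate 1 (0.064). The latter passed with the replicate block (log2 fold change 1.40, adjusted p = 0.0332), under library size alone (0.0194) and without adult replicate 3 (0.0276). It also passed with a stricter count filter (0.0442) and by limma on log2(TPM + 0.1) (0.0427). Between the young groups the log2 fold change was 0.21 (95% interval -0.53 to 0.95). The gene Gm10461 on the opposite strand shares 635 exonic bases with Yes1, and reads of either cannot be told apart without strand.

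The make-up of the Src-family transcripts was compared as each gene's share of the summed TPM of the 6 members, as a description with no test. Lyn made up 62.9% ± 1.89 (SD, n = 3) in young TOM+ cDC2, 65.0% ± 0.555 in young TOM- DC2 and 53.5% ± 2.25 in adults. Fgr made up 28.5% ± 1.77, 27.1% ± 0.641 and 36.5% ± 3.03 in the same order. The shares of Lyn and Fgr in adults did not overlap with those in young cells. Fyn held 8.36%, 6.77% and 8.18%, and Blk 0.0879%, 0.903% and 1.69%. The summed TPM were 672 ± 36.5, 653 ± 53.5 and 780 ± 32.2. Lyn over Fgr was 2.22 ± 0.209, 2.40 ± 0.0770 and 1.47 ± 0.174 in TPM. The difference in the share of Lyn between young TOM+ cDC2 and adults was 9.42 percentage points.

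**Figure D4:**
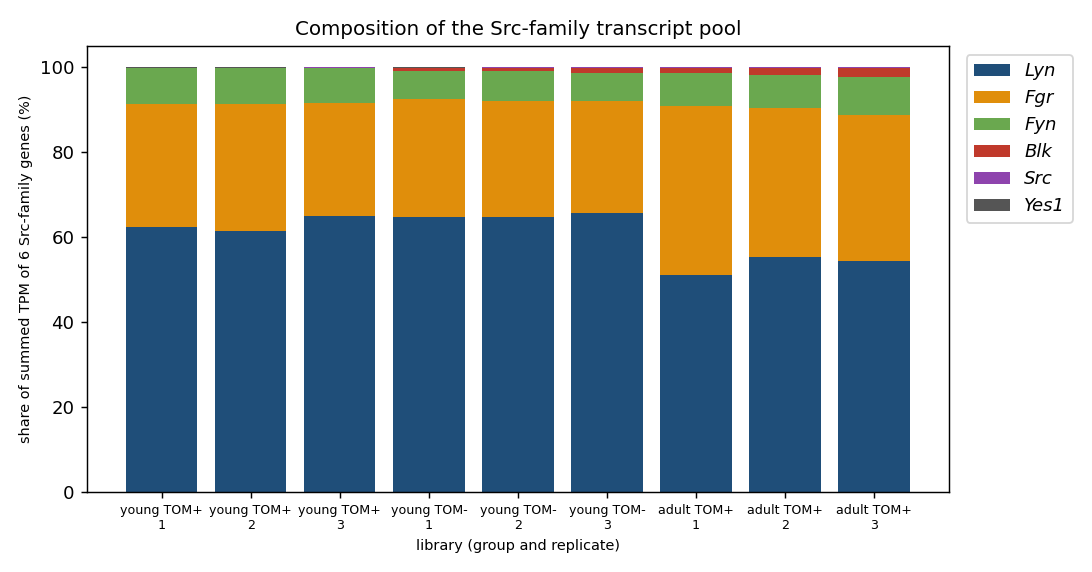
Share of each Src-family gene in the summed TPM of Blk, Fgr, Lyn, Fyn, Src and Yes1, as stacked bars in percent, 1 bar per library. Lyn takes 61.4% to 65.7% in the 6 libraries from young mice and 50.9% to 55.2% in adults, and the Fgr band is wider in adults.

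Csk, the kinase that restrains the Src family, also changed with age. Its level was 140, 135 and 117 TPM in young TOM+ cDC2, 132, 123 and 121 TPM in young TOM- DC2 and 192, 198 and 182 TPM in adults. Every adult library was above every library from young mice, and the young groups overlapped. Adults were 1.60-fold above young TOM+ cDC2 (log2 fold change -0.68 ± 0.09 SE, edgeR adjusted p = 6.88e-05) and 1.71-fold above young TOM- DC2 (-0.77 ± 0.09, edgeR adjusted p = 3.39e-05). Csk passed in both under all 20 alternative fits of each. The log2 fold change between the young groups was 0.09 (95% interval -0.09 to 0.28, edgeR adjusted p = 0.864). Per 100 TPM of the 6 Src-family genes there were 19.5 ± 2.25 TPM of Csk in young TOM+ cDC2, 19.2 ± 1.12 in young TOM- DC2 and 24.5 ± 1.44 in adults.

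Of the kinases after the ITAM, Syk was lower and Btk higher in young TOM+ cDC2 than in adults. Syk was 152, 135 and 155 TPM in young TOM+ cDC2, 145, 137 and 159 TPM in young TOM- DC2 and 163, 187 and 181 TPM in adults. The adult libraries were higher than all young ones, by a narrow gap between 159 and 163 TPM. Adults were 1.33-fold above young TOM+ cDC2 (log2 fold change -0.41 ± 0.09 SE, edgeR adjusted p = 0.00385) and 1.36-fold above young TOM- DC2 (-0.44 ± 0.09, edgeR adjusted p = 0.00274). Both calls were lost under library size alone, with log2 fold changes of -0.21 and -0.22 and adjusted p-values of 0.0631 and 0.053. Between the young groups the log2 fold change was 0.03 (95% interval -0.17 to 0.23, edgeR adjusted p = 0.972).

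Btk, the Tec-family kinase that activates phospholipase C gamma, was 74.8, 62.4 and 69.4 TPM in young TOM+ cDC2, 77.5, 63.3 and 66.8 TPM in young TOM- DC2 and 48.8, 51.1 and 58.6 TPM in adults. The adult libraries were the lowest and did not overlap with either young group. Btk was 1.18-fold higher in young TOM+ cDC2 than in adults (log2 fold change 0.24 ± 0.09 SE, edgeR adjusted p = 0.04) and 1.16-fold higher in young TOM- DC2 (0.21 ± 0.09, edgeR adjusted p = 0.0707). The former call was lost in 9 of 20 alternative fits, 5 of which left out 1 library (young TOM+ replicate 1 or 3, young TOM- replicate 3, or adult replicate 1 or 2), with adjusted p-values up to 0.159. The latter passed with the replicate block (log2 fold change 0.23, adjusted p = 0.00995) and under library size alone (0.00271). It also passed in the limma fits (0.015 to 0.0223) and without adult replicate 3 (0.0417). Between the young groups the log2 fold change was 0.03 (95% interval -0.16 to 0.22, edgeR adjusted p = 0.975). The ratio of Syk to Btk in TPM was 2.15 ± 0.108 in young TOM+ cDC2, 2.14 ± 0.254 in young TOM- DC2 and 3.37 ± 0.283 in adults, and the adult ratios lay above those of all young libraries.

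The rest of the pathway was read from 4 gene lists, each described by its counts at an adjusted p under 0.05 in the same edgeR fit and by its median log2 fold change. Over all genes tested, 19.5% were lower and 21.0% higher in young TOM+ cDC2 than in adults, with a median of 0.05. In young TOM- DC2 against adults the shares were 16.9% and 19.4% and the median 0.07. Of 12 related kinases tested, from the Src, Syk, Tec, Csk and neighbouring families, 7 were lower and none higher in young TOM+ cDC2 than in adults, with a median of -0.40, and none was higher at an unadjusted p under 0.05 or with DESeq2 or limma. In young TOM- DC2 against adults 7 were lower and 1 higher, with a median of -0.27. By limma on log2(TPM + 1), which tested 11 of them, 3 were lower in the former comparison and 4 in the latter, and 0 and 3 were higher. Of all genes that passed in this limma fit, 67.5% were higher in the former and 72.7% in the latter. Matk, a relative of Csk, was lower in young TOM+ and TOM- cells (-0.45 and -0.35, edgeR adjusted p = 0.00368 and 0.0181). Both Matk calls were lost under library size alone (adjusted p = 0.0817 and 0.373) and in the limma fits (0.106 to 0.151 and 0.369 to 0.432). The call in TOM- cells was also lost without young TOM- replicate 2 (0.0642) or adult replicate 3 (0.0731). Srms was lower by a larger step (-3.08 and -1.77, edgeR adjusted p = 7.95e-06 and 0.000276) at levels of 0.4 to 4.8 TPM.

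Kinases of T cells and innate lymphocytes appeared in young TOM- DC2 at a few TPM. Txk, the 1 related kinase past the threshold between the young groups in this fit, was lower in TOM+ cDC2 than in TOM- DC2 (log2 fold change -2.52, edgeR adjusted p = 0.00365), at 0.2 to 0.7 against 1.6 to 3.0 TPM. It was also lower in young TOM+ cDC2 than in adults (-1.59, edgeR adjusted p = 0.00815, and 0.0877 by limma on log2(TPM + 1)). The difference of young TOM- DC2 from adults (0.92, edgeR adjusted p = 0.0585) passed with the replicate block (1.33, adjusted p = 0.00984). That difference also passed under library size alone (0.0197), in the limma fits (0.0208 to 0.0459) and with only the 2 groups fitted (0.0473). It passed too without young TOM+ replicate 2 (0.0458) or young TOM- replicate 1 (0.0321). Lck, the Src-family kinase of T cells, was 1.8 to 2.1 TPM in young TOM- DC2 and at most 1.1 TPM elsewhere. It was higher in young TOM- DC2 than in adults (1.75, edgeR adjusted p = 0.0139), and passed between the young groups with the replicate block (-1.51, adjusted p = 0.037), as did Srms (-1.31, adjusted p = 0.0125). Srms also passed there with DESeq2 (adjusted p = 0.0229) and without the filter on low counts (0.0438). Beside these, 2 of 8 markers of group 3 innate lymphoid cells were lower in young TOM+ cDC2 than in young TOM- DC2, against 1.47% of all genes tested. At an unadjusted p under 0.05 in edgeR, 6 of the 8 were lower and 0 higher. Of 8 T cell markers 0 passed between the young groups in edgeR (1 at an unadjusted p under 0.05, 0 with DESeq2 and 0 of 5 tested with limma), and the most abundant of them, Cd5, was 32.8 to 37.0 TPM in TOM- and 21.9 to 26.9 TPM in TOM+ libraries of young mice. The other 7 T cell markers summed to 1.12 to 4.90 and 0.79 to 6.20 TPM in the same groups, which overlapped. Whether such cells contributed these transcripts was not tested.

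Receptor chains that carry an ITAM or pair with ITAM adaptors numbered 11. Against adults, 2 were higher and 3 lower in young TOM+ cDC2 (median -0.26), and 3 were higher and 3 lower in young TOM- DC2 (median 0.40). Of all genes tested, 21.0% were higher and 19.5% lower in the former, and 19.4% and 16.9% in the latter. Tyrobp, which encodes DAP12, and Fcer1g, the Fc receptor gamma chain, were by far the most abundant of the 11, at 1895 to 2356 TPM and 1129 to 1481 TPM. Fcer1g was lower in young TOM+ and TOM- cells than in adults (log2 fold change -0.38 and -0.35, edgeR adjusted p = 0.0143 and 0.024). Its call in TOM+ cells was lost under library size alone (adjusted p = 0.163) and without young TOM+ replicate 1 (0.0514) or adult replicate 1 (0.0571). The call in TOM- cells was lost under library size alone (0.326) and in the limma fits (0.0764 to 0.118). It was also lost without young TOM- replicate 1 or 3, or adult replicate 1 or 2 (adjusted p from 0.0531 to 0.0881). Tyrobp (-0.27 and -0.23, edgeR adjusted p = 0.0673 and 0.12) passed with the replicate block (adjusted p = 0.0027 and 0.00885). In TOM+ cells it passed in 6 of 20 alternative fits, among them DESeq2 (adjusted p = 0.0278). In TOM- cells it also passed without young TOM- replicate 2 (0.0452). Clec7a, which encodes Dectin-1, was 200 to 302 TPM in young libraries and 661 to 693 TPM in adults (-1.57 and -1.61, edgeR adjusted p = 2.44e-05 and 2.67e-05). Clec1b, which encodes CLEC-2, was also lower in young cells (-2.66 and -2.36, edgeR adjusted p = 0.000124 and 0.000309) at levels of 0.5 to 3.7 TPM. Pilrb1 was higher in young cells (2.08 and 2.11, edgeR adjusted p = 2.1e-07 and 2.38e-07), with the reservation that near-identical Pilr genes can share reads. Cd247, the zeta chain of the T cell receptor, was 4.8 to 7.9 TPM in young TOM- DC2 and at most 0.4 TPM elsewhere. It was the 1 chain of the list that passed between the young groups (-4.48, edgeR adjusted p = 4.92e-05), where 1.47% of all genes tested were lower.

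The list of brakes and phosphatases held 23 genes, of which 0 passed between the young groups in edgeR (median -0.01), 5 had an unadjusted p under 0.05, and 3 passed with DESeq2 and 0 with limma. Of all genes tested in that comparison, 0.125% were higher and 1.47% lower in edgeR, and 369 passed with DESeq2. A count of 0 in a list this short is near that edgeR share. Against adults, 8 of the list were lower and 2 higher in young TOM+ cDC2 (median -0.23), and 8 were lower and 3 higher in young TOM- DC2 (median -0.17). Among all genes, 19.5% were lower and 21.0% higher in the former, and 16.9% and 19.4% in the latter. By limma on log2(TPM + 1), which tested 22 genes of the list, 7 were lower and 4 higher in the former, and 4 lower and 4 higher in the latter. Of all genes that passed in this limma fit, 67.5% were higher in the former and 72.7% in the latter. Ptprc, which encodes CD45, was 537 to 739 TPM in young libraries and 948 to 971 TPM in adults (log2 fold change -0.79 and -0.80, edgeR adjusted p = 0.000102 and 0.000119). Ptpn6, which encodes the phosphatase SHP-1, was lower as well (-0.69 and -0.63, edgeR adjusted p = 0.00179 and 0.00357). Dok2, an adaptor that dampens signalling, ran the other way, at 4.7 to 8.2 TPM in young libraries and 0.1 to 1.3 TPM in adults (3.42 and 3.71, edgeR adjusted p = 0.000458 and 0.00029). The size for Dok2 depended on adult replicate 2, without which the log2 fold changes were 5.68 and 5.96, and 2.85 and 3.14 without adult replicate 3.

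Adaptors and effectors downstream of Syk and Btk numbered 36, of which 0 passed between the young groups in edgeR (median 0.00), 2 had an unadjusted p under 0.05, and 0 passed with DESeq2 or limma. Of all genes tested, 0.125% were higher and 1.47% lower in edgeR in that comparison, so 0 in the list is near that share. In the list, lower genes outnumbered higher ones in the age comparisons, with 19 lower and 2 higher in young TOM+ cDC2 (median -0.34) and 20 lower and 1 higher in young TOM- DC2 (median -0.40). The shares of all genes tested were 19.5% lower and 21.0% higher in the former, and 16.9% and 19.4% in the latter. By limma on log2(TPM + 1), 15 of the list were lower and 3 higher in the former, and 12 lower and 4 higher in the latter. Of all genes that passed in this limma fit, 67.5% were higher in the former and 72.7% in the latter. Under the fold threshold 6 and 5 of the list were called, all of them lower in young cells. Of all genes tested, 12.8% and 11.3% were called in either direction. Malt1, the protease of the CARD9-BCL10-MALT1 complex, was 88.5 to 126 TPM in young libraries and 204 to 245 TPM in adults (log2 fold change -1.27 and -1.13, edgeR adjusted p = 3.26e-06 and 9.92e-06). Rasgrp3, an exchange factor for Ras, was lower in young cells (-1.30 and -1.31, edgeR adjusted p = 6.43e-05 and 7.74e-05), and so was the adaptor Nck2 (-1.23 and -1.35, edgeR adjusted p = 4.26e-06 and 3.24e-06). Rasgrp4 was lower too (-0.94 and -1.06, edgeR adjusted p = 2.49e-05 and 1.43e-05). Blnk, an adaptor that links Syk to Btk, was lower in young TOM+ cDC2 (-1.08, edgeR adjusted p = 0.0159) at about 1 to 2 TPM, but not with the replicate block (adjusted p = 0.0701) or without adult replicate 2 (0.0559) or 3 (0.0507). Grb2, the most abundant gene of the list at 414 to 467 TPM, did not pass (-0.13 and -0.10, edgeR adjusted p = 0.245 and 0.395). Skap2 was lower (-0.27 and -0.30, edgeR adjusted p = 0.0125 and 0.00784), but not under library size alone (adjusted p = 0.467 and 0.426).

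**Figure D5:**
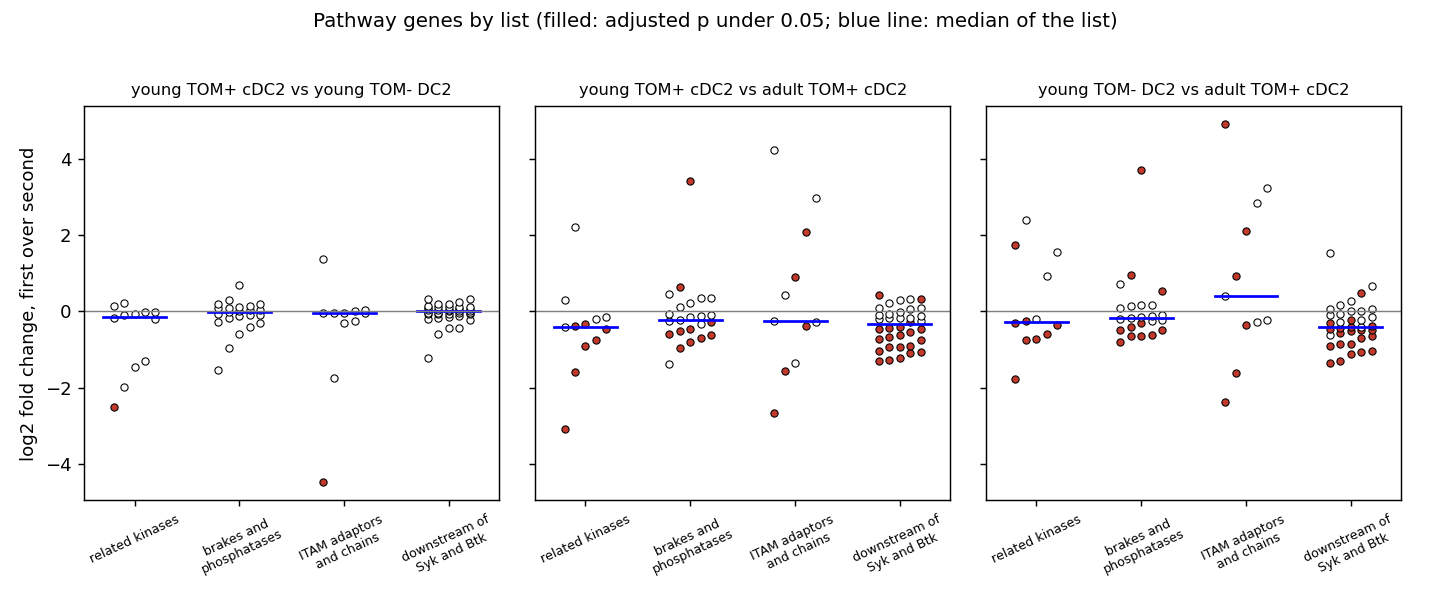
Log2 fold changes of the pathway genes in the 4 lists and the 3 comparisons, 1 point per gene, filled where the edgeR adjusted p was under 0.05, with the median of each list as a blue line. Between the young groups 2 genes are filled (Txk and Cd247), whereas 19 and 20 of 36 genes downstream of Syk and Btk are filled below 0 against adults.

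For the 3 members whose group means ranged most, the genes with the most similar pattern were taken by Pearson's r of log2(TPM + 1) over the 9 libraries among 9085 genes with a mean of at least 5 TPM. These values are descriptive, as the libraries fall into 3 groups. Blk was most like Immp2l (r = 0.99), Mmp9 (r = 0.98) and Blcap (r = 0.98). Mmp9, which encodes a secreted gelatinase, had group means of 0.183, 11.8 and 63.4 TPM in young TOM+, young TOM- and adult cells. Fgr was most like Pml (r = 0.99), Lrrk2 (r = 0.99) and Slc2a3 (r = 0.99), of which Lrrk2 had means of 25.8, 22.3 and 74.7 TPM. Csk was most like Lipe (r = 0.99), Rasgrp4 (r = 0.99) and Oas3 (r = 0.98).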

How the data were processed

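Type 2 dendritic cells were sorted in 3 groups of 3 libraries, and groups were taken from the sample labels. The authors sequenced SMART-seq cDNA as single-end reads of 50 bases and mapped them to mm10 with STAR, whose version is not given in the sources used here. They deposited unnormalized STAR counts per gene, of which the unstranded column was used without its 4 summary lines. Together these lines held 26.1% to 31.6% of reads. The authors also deposited RSEM expected counts, TPM and FPKM per gene. TPM gave levels, FPKM an alternative for the shares, and expected counts, rounded, an alternative test. Deposited TPM are relative to each library's total, so a large change elsewhere shifts every gene.

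Counts were tested in R 4.3.3 with edgeR 4.0.16 (quasi-likelihood, TMM) over all 9 libraries, for the genes averaging at least 1 count, with Benjamini-Hochberg adjustment. DESeq2 1.42.0 and limma 3.58.1 (pseudocounts 1 and 0.1, mean TPM of at least 0.1) were alternatives. These tests were tested on simulated data. Libraries of a group were not copies of each other. Read counts given for a gene cover counting error only.

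Library numbers in the deposited names (81, 91 or 92 in both young groups, and 91, 92 or 95 in adults) served as a replicate block. Residuals of same-numbered young libraries correlated at 0.393 to 0.649 (3 pairs) and those of other young pairs at -0.47 to 0.166. The main edgeR fit had no block, so its standard errors and p-values do not use this pairing. The block was an alternative only. What the number marks is not stated, and the adult library numbered 95 is alone in its block and adds nothing to blocked age differences. Number 81 holds no adult library, so young and adult cells meet only in blocks 91 and 92. Residuals of same-numbered young and adult libraries correlated at 0.00955 to 0.120, and those of other young and adult pairs at -0.123 to 0.0576.

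The 9 members and all gene lists were chosen with earlier results of these data known. Named were all members, the called pathway genes (up to 4 of largest change per list and comparison) with the 2 of highest TPM per list, the 3 markers of highest TPM per marker list where a result touches it, and 3 like genes for the 3 members of largest range. Results of 3 genes under this rule or in the marker lists are not reported here. Other B cell markers, the exonic overlaps (GENCODE M21, GRCm38) and the motif were chosen after values were seen. Marker lists of cDC1, pDC, monocytes and NK cells, whose summed TPM lay at 129 to 198, 153 to 203, 385 to 485 and 3.26 to 5.09, were also read.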

Additional observations from a re-analysis of the deposited data

How the results depend on the processing

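Each member was refitted under 20 alternatives in each of the 3 comparisons: 495 refits stayed on their side of the threshold, 29 lost a call and 16 gained one, and no called value changed sign. Genes called numbered 274 with the replicate block against 170 between the young groups. By limma on log2(TPM + 1), with and without the filter, they numbered 1147 and 1123 against 1853 (young TOM+ against adult), and 1014 and 994 against 1631 (young TOM- against adult). By limma on log2(TPM + 0.1), which differs from the filtered fit in the pseudocount, they numbered 1860 and 1738 in these comparisons. The cause was not tested. Of called genes, limma put 55.0% (pseudocount 1) and 57.3% (0.1) higher in young TOM+ cDC2 than in adults, and 63.9% and 69.3% in young TOM- DC2. Members past the threshold between the young groups numbered 1 in place of 2 under library size alone and in each of the 3 limma fits, and 8 in place of 5 with the replicate block in young TOM- DC2 against adults. The replicate block changed no other call of a member. Without 1 library at a time, genes called ranged from 126 to 176, from 1638 to 1887 and from 1486 to 1679 in the 3 comparisons, and members from 1 to 2, from 5 to 7 and from 5 to 7. The order of the group means was the same in TMM-scaled CPM for 6 of 9 members, and differed for Lyn, Src and Btk. The difference in the share of Lyn, young TOM+ minus adult, was 8.15 to 10.3 percentage points without 1 library and 9.42 with FPKM. On the log2(TPM + 1) scale, which understates changes of low genes, Blk was at -2.13 between the young groups and at -3.17 in young TOM+ cDC2 against adults, and Yes1 at 0.38 in the latter. Depth limits Src, Yes1 and Blk in young TOM+ cDC2.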
